A study of Bos taurus with 8 samples.

Results

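The transcription factors of the squamous epithelium were followed in the rumen papillae of dairy cattle. A list of 10 genes was examined (TP63, SOX2, KLF4, KLF5, GRHL1, GRHL3, OVOL1, EHF, ELF3 and BARX2), and a gene was taken as present on the array where a probe carried a RefSeq accession of that gene. A matched probe was found for 7 of the 10, among 7788 genes named in this way, and each of the 7 had a single probe with 2 spots. SOX2, GRHL3 and EHF had no such probe and are not analysed here. The scanner software tests each spot against its background. Of the 7 genes, 6 (KLF4, KLF5, GRHL1, OVOL1, ELF3 and BARX2) passed this test on all 8 arrays, as did 16030 of the 21475 probes of the array, and these are called measured. TP63 passed it on 0 arrays.

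The samples were total RNA of whole papillae from 4 ruminally cannulated, lactating Holstein cows. Each cow was sampled once on a low-concentrate diet (LC, 40% concentrate of dry matter) and once on a high-concentrate diet (HC, 70% concentrate), on day 21 of a feeding period and 4 h after the morning feeding. Cows 1 and 2 were fed LC in period 1 and HC in period 2, and cows 3 and 4 the reverse, with 1 array per sample and 4 arrays per diet. All 4 arrays of a period lay on 1 slide, so period and slide cannot be told apart.

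The rumen is lined by a stratified squamous epithelium, in which cells divide in the basal layer and differentiate as they move towards the lumen. In such epithelia TP63 is the regulator that commits cells to the stratified programme and maintains the basal layer, SOX2 marks the epithelium of the foregut, and KLF5 is linked to proliferating basal cells. KLF4, GRHL1, GRHL3 and OVOL1 act as cells leave the basal layer, differentiate and form the barrier. EHF and ELF3 are epithelial members of the ETS family, and BARX2 is a homeobox factor.

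Marker genes were read for the cell types of the tissue. Of the 11 genes listed for squamous epithelium, all 5 with a probe (KRT14, DSG1, DSG3, TGM1 and EPCAM) were measured. EPCAM is an epithelial gene that is not particular to squamous cells. Those of smooth muscle (7 of 7 with a probe) and of fibroblasts and stroma (7 of 7) were measured too. Of the endothelial markers 2 of 2 were measured, and of the erythrocyte markers 2 of 4. Among all probes, 16030 of 21475 were measured, so these counts show only that genes of other tissues gave a signal. Of 6 immune cell markers with a probe 4 were measured, and ITGAM passed on no array. Of 6 columnar epithelium markers with a probe, KRT8 and KRT18 were measured, and KRT20 passed the background test on no array. The summed linear signal of KRT8 and KRT18 was 512 to 1883 on the LC arrays and 475 to 837 on the HC arrays. KRT8, a keratin of simple epithelia, had log2 signals of 10.84 and 10.79 on the LC arrays of cows 1 and 2, and of 8.82 to 9.58 on the other 6 arrays. Within period 2 its HC signals (9.45 and 9.53) lay above its LC signals (8.91 and 9.39). Its log2 difference between diets was -0.64 (SE 0.20, unadjusted p = 0.0166, adjusted p = 1.00 from limma), and that between periods was -0.69 (unadjusted p = 0.0121, adjusted p = 0.253). The exact permutation p was 0.343 for diet and 0.257 for period. Both passed the thresholds used below, and neither did without the interaction term (unadjusted p = 0.159 and 0.134). The difference between diets was -0.45 without the HC array of cow 3 and -0.52 without the LC array of cow 4, where it no longer did. The difference between periods was -0.57 without the LC array of cow 3 and -0.50 without the HC array of cow 4, where it no longer passed. Of the other marker genes, FABP2 and ALAS2 passed the thresholds for period, with log2 differences of 1.45 (unadjusted p = 0.000192, adjusted p = 0.076) and -0.94 (unadjusted p = 0.0171, adjusted p = 0.278) from limma. Of all probes, 0.922% passed these thresholds for diet and 3.86% for period. FABP2, a fatty acid binding protein of the intestine, was above background on 4 of the 8 arrays, and ALAS2, an enzyme of heme synthesis in red cells, on 2. FABP2 log2 signals were 3.38, 3.27, 2.03 and 2.53 on LC in cows 1 to 4, and 4.07, 4.73, 0.51 and 0.39 on HC. All arrays of cows 1 and 2 thus lay above all arrays of cows 3 and 4, and in each cow the period 2 array was the higher. The HC signals of cows 3 and 4, from period 1, lay below 2.02, the lowest signal called well above background on any array. The exact permutation p for period was 0.229 for FABP2 and 0.0857 for ALAS2. What part these markers have in the results below was not tested. In bulk tissue, fewer cells of a type and less RNA per cell cannot be told apart.

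All values of genes are log2 signals after quantile normalization, and a difference of 1 is a doubling of the signal. Since probes bind with different affinity, levels are compared between samples and not between genes. A difference was called when it reached 1.5-fold with an unadjusted p under 0.05 in limma. These thresholds are those of the study, which applied a general linear model without moderation of the variance. For diet, 0 of the 6 measured factors were called, against 0.922% of the 21475 probes (0.494% higher and 0.428% lower on HC), and for period 0 of 6 were called, against 3.86% of the probes. At an unadjusted p under 0.05 alone, 0 of the 6 passed for diet (3.65% of probes did) and 0 for period (12.3% of probes did). The mean signal was higher on HC for 2 of the 6 and lower for 4, and their median log2 difference was -0.01, against -4.5e-05 over all probes. Without regard to sign, the median difference was 0.04 for the 6 factors and 0.08 for the measured probes.

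**Figure D1:**
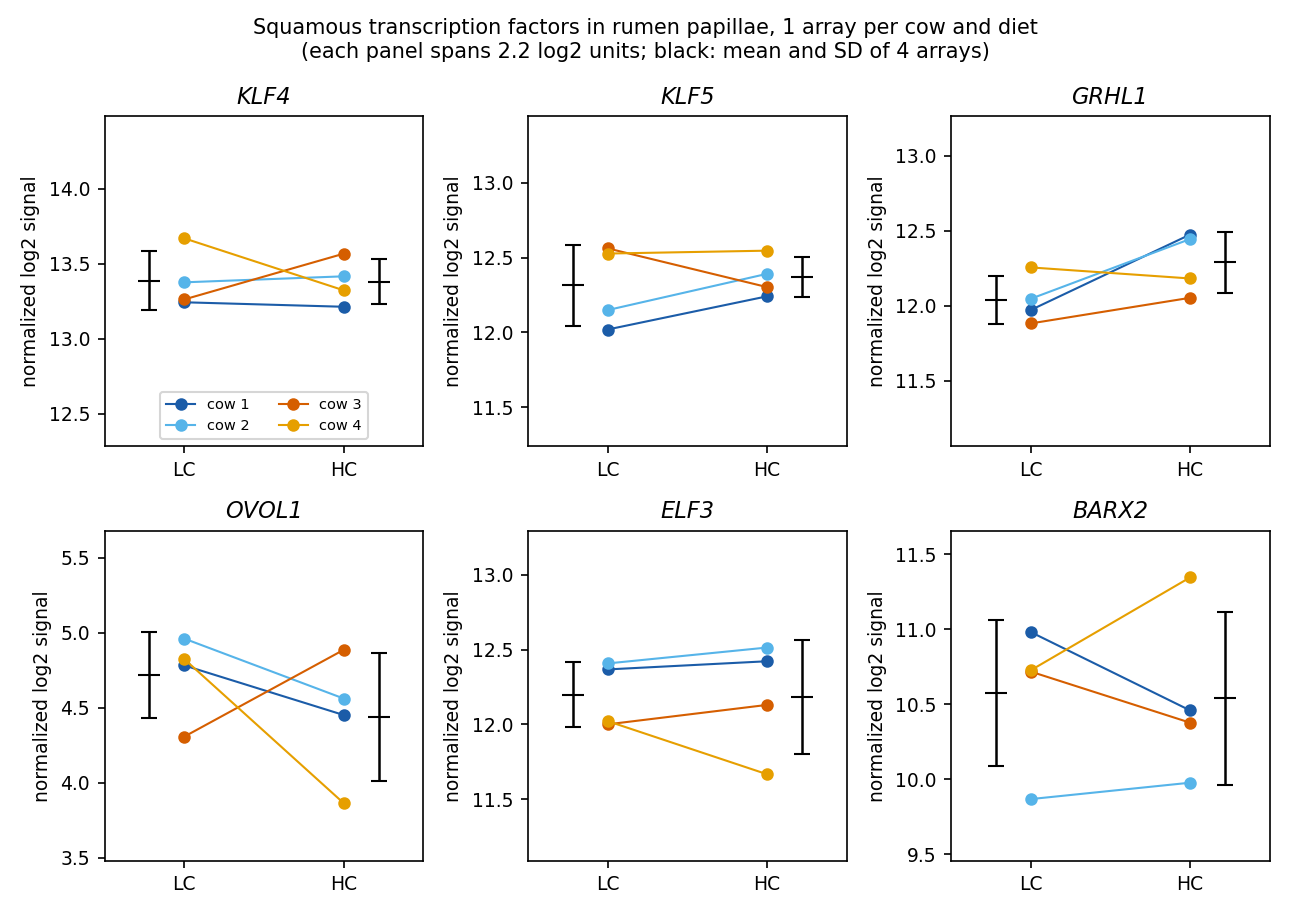
Normalized log2 signal of the 6 measured factors on LC and on HC, with a line for each cow and, in black, the mean and SD of the 4 arrays of a diet. Every panel spans the same range on the y axis, and the LC and HC arrays overlap for all 6 genes, with BARX2 and OVOL1 the most spread.

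The first question was whether the diet changed the factors of the basal layer. The TP63 probe (NM_001191337) had log2 signals of 0.07 to 0.15 on the 8 arrays. The lowest signal called well above background on any array was 2.02 to 2.77, depending on the array, so these values lie at the floor. No difference of TP63 between diets could be measured with this probe, and its values are not evidence that the transcript was missing. KRT14, a keratin of basal cells and a textbook target of TP63, had a log2 signal of 17.97 ± 0.19 (SD, n = 4) on LC, and of 17.89 ± 0.19 (SD, n = 4) on HC.

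KLF5 (NM_001083727), a zinc finger factor, had log2 signals on LC of 12.02, 12.15, 12.56 and 12.53 in cows 1 to 4. On HC they were 12.24, 12.39, 12.30 and 12.55 in the same order. Cows 1 and 2 lay lower than cows 3 and 4 on LC, and on HC the 4 cows lay closer together. The mean was 12.31 ± 0.27 (SD, n = 4) on LC and 12.37 ± 0.13 (SD, n = 4) on HC. The log2 difference of KLF5 was 0.06 (SE 0.10), with a 95% interval of -0.19 to 0.30 and an exact two-sided permutation p of 0.743 over the arrays.

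Among the factors of differentiating cells, KLF4 (NM_001105385), which acts in the barrier layers of skin and gut, had the least spread. Its LC signals were 13.24, 13.38, 13.26 and 13.67 in cows 1 to 4, and its HC signals 13.21, 13.42, 13.57 and 13.32. The 8 arrays spanned 1.37-fold, and cows 3 and 4 differed between diets in opposite directions, by 0.30 and -0.35. With means of 13.39 ± 0.20 (SD, n = 4) on LC and 13.38 ± 0.15 (SD, n = 4) on HC, the log2 difference was -0.01 (SE 0.13). Its 95% interval ran from -0.33 to 0.31, and the exact permutation p was 0.943.

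GRHL1 (NM_001076450), a grainyhead-like factor known to drive desmosomal cadherin genes, had the lowest unadjusted p for diet of the 6. On LC its signals were 11.97, 12.05, 11.88 and 12.25 in cows 1 to 4. On HC they were 12.47, 12.44, 12.05 and 12.18. The highest LC array, that of cow 4, lay above the HC arrays of cows 3 and 4, so the groups overlapped. On HC the signal was higher by 0.50, 0.40 and 0.17 in cows 1 to 3, and it differed by -0.07 in cow 4. The means were 12.04 ± 0.16 (SD, n = 4) and 12.29 ± 0.20 (SD, n = 4), a log2 difference of 0.25 (SE 0.11) or 1.19-fold. In limma its unadjusted p was 0.0651 and its adjusted p 1.00. The exact permutation p, over arrays without regard to the cow, was 0.114, where 0.0286 is the smallest that 4 arrays against 4 allow. In a fit of period and diet that blocked on the cow, the unadjusted p was 0.0491 and the adjusted p 0.843. Without the LC array of cow 4 the difference was 0.34 and the unadjusted p 0.0142, while leaving out the LC array of cow 3 gave 0.16. Neither reached 1.5-fold. The difference was 0.11 within period 1 and 0.39 within period 2. Of the measured probes, 90.7% differed less between diets than GRHL1.

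DSG1, a desmosomal cadherin and textbook target of GRHL1, was named after its values were seen. The DSG1 log2 signal was 11.13 ± 1.28 (SD, n = 4) on LC and 10.49 ± 1.68 (SD, n = 4) on HC. On HC, 2 of 4 cows had the higher signal, and the log2 difference of -0.64 (SE 0.83) had an unadjusted p of 0.471 and an adjusted p of 1.00 from limma.

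OVOL1 (NM_001081521), a zinc finger repressor that restrains the division of epithelial progenitors, was the dimmest of the 6 on this array, and its 2 spots on an array differed by a median of 0.22. Its LC signals were 4.78, 4.96, 4.31 and 4.82 in cows 1 to 4, and its HC signals 4.45, 4.56, 4.89 and 3.86. The HC array of cow 4 was the lowest of all 8. The signal was lower on HC in cows 1, 2 and 4, by -0.33, -0.40 and -0.96, and differed by 0.58 in cow 3. The mean was 4.72 ± 0.28 (SD, n = 4) on LC and 4.44 ± 0.43 (SD, n = 4) on HC. The log2 difference of -0.28 (SE 0.25) had a 95% interval of -0.87 to 0.32 and an exact permutation p of 0.343. It ranged from -0.53, without the HC array of cow 3 (unadjusted p = 0.0213 from limma, still under 1.5-fold), to -0.02, without the HC array of cow 4.

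Of the ETS factors, ELF3 (NM_001098909), which is induced as epithelial cells differentiate and in inflamed epithelia, had LC signals of 12.37, 12.41, 12.00 and 12.02 in cows 1 to 4. Its HC signals were 12.42, 12.51, 12.13 and 11.67. Cows 1 to 3 differed little between their diets, by 0.05, 0.11 and 0.13, and cow 4 differed by -0.35. The mean was 12.20 ± 0.22 (SD, n = 4) on LC and 12.18 ± 0.38 (SD, n = 4) on HC. The log2 difference between diets was -0.02 (SE 0.12), with a 95% interval of -0.31 to 0.28 and an exact permutation p of 1.

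BARX2 (NM_001101266) varied most between the samples. It had LC signals of 10.98, 9.87, 10.72 and 10.73 in cows 1 to 4, and HC signals of 10.46, 9.98, 10.38 and 11.35. The 2 arrays of cow 2 were the lowest of the 8 and the HC array of cow 4 the highest, a span of 2.79-fold. Cows 1 and 3 were lower on HC by -0.52 and -0.34, and cows 2 and 4 differed by 0.11 and 0.62. The means were 10.57 ± 0.49 (SD, n = 4) on LC and 10.54 ± 0.58 (SD, n = 4) on HC. The log2 difference of -0.03 (SE 0.32) had a 95% interval of -0.81 to 0.74 and an exact permutation p of 0.971. In the table of normalized values that the authors deposited, the columns named for cows 1 and 2 followed the scanner array of the other of these cows on both diets (r of at least 0.99989 across 16030 probes, against 0.993 with the array of the same name). The low BARX2 signals stood under cow 1 there (9.87 and 9.97). Which of the 2 names is right was not tested, and the exchange leaves the diets and the pairing as they are.

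The intervals of the difference between diets stated how large a change could have gone unseen. They lay inside 1.5-fold in both directions for 4 of the 6 factors, KLF4, KLF5, GRHL1 and ELF3. For BARX2 they reached past it in both directions, and for OVOL1 (0.546-fold to 1.25-fold) only towards a lower signal on HC. A 1.5-fold change of BARX2 and a 1.5-fold decrease of OVOL1 thus lay within what 4 arrays per diet could not resolve. For KLF4 the bounds were 0.797-fold and 1.24-fold, and for BARX2 they were 0.571-fold and 1.67-fold.

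**Figure D2:**
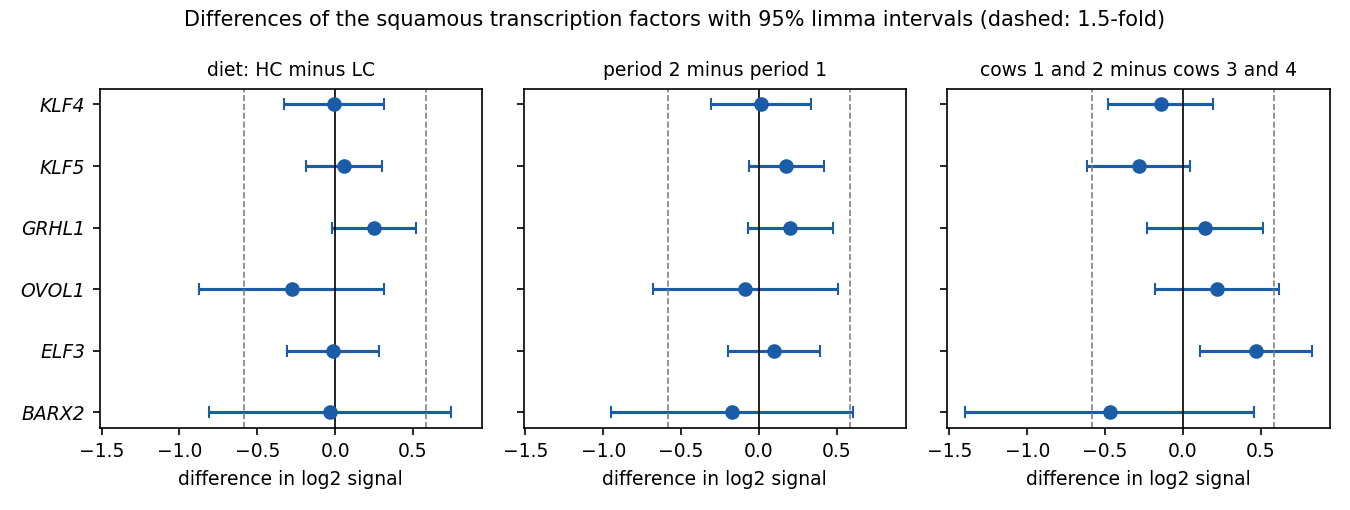
Differences in log2 signal of the 6 measured factors (points) with 95% intervals from limma (bars), for diet, for period and for the pairs of cows, with dashed lines at 1.5-fold. All intervals for diet and period span 0, and of those for the pairs of cows only that of ELF3, from 0.11 to 0.83, does not.

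Between the periods, 4 of the 6 factors were higher in period 2. The largest differences were those of GRHL1, from 12.06 ± 0.09 (SD, n = 4) to 12.26 ± 0.27 (SD, n = 4), and of KLF5, from 12.25 ± 0.23 (SD, n = 4) to 12.43 ± 0.15 (SD, n = 4). Their log2 differences were 0.20 (SE 0.11) and 0.18 (SE 0.10), with adjusted p values of 0.557 and 0.567 from limma. The other 4 lay between -0.17 (BARX2) and 0.10 (ELF3), with adjusted p values of 0.825 to 0.985. For all 6 factors the arrays of the periods overlapped, as they did for the diets. Non-overlapping arrays were found for 7.31% of the measured probes between periods and for 1.63% between diets.

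The remaining contrast of the design, the interaction of diet and period, is the same as cows 1 and 2 (LC first) against cows 3 and 4 (HC first). The means of the 4 cows were compared for it in limma. Of the 6 factors, 0 were called, against 2.48% of the probes, and ELF3 was the 1 factor with an unadjusted p under 0.05, against 5.96% of the probes. The 4 ELF3 signals of cows 1 and 2 (12.37 to 12.51) all lay above the 4 of cows 3 and 4 (11.67 to 12.13). ELF3 was the 1 factor whose arrays did not overlap between the pairs, a property that 6.58% of the measured probes had. The cow means averaged 12.43 in cows 1 and 2 and 11.96 in cows 3 and 4, a log2 difference of 0.47 (SE 0.13) or 1.39-fold, with an unadjusted p of 0.0215 and an adjusted p of 0.817 from limma. It ranged from 0.38, without the HC array of cow 4, to 0.56, without the LC array of cow 4. Within a period the diets were given to different pairs of cows, and the ELF3 difference between diets was -0.49 within period 1 and 0.46 within period 2. KLF5 lay the other way, with means of 12.20 in cows 1 and 2 and 12.48 in cows 3 and 4 (log2 difference -0.28, SE 0.12, adjusted p = 0.817). Order of the diets and the individual cows cannot be told apart in this contrast.

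The 6 factors differed in where their spread lay. For ELF3 the SD of the 4 cow means was 0.29 and the SD between the 2 arrays of a cow 0.14, and for BARX2 these were 0.47 and 0.31. For OVOL1 and GRHL1 the SD within a cow was the larger, with SDs of 0.17 and 0.13 between cows and 0.44 and 0.24 within a cow. The 2 SDs are not alike, since a cow mean averages 2 arrays and still carries part of the spread within the cow. The 2 arrays of a cow also differ in diet and period, so the SD within a cow includes those differences. KLF4 and KLF5 lay near the medians of the 16030 measured probes, which were 0.15 between cows and 0.17 within a cow. Over all 8 arrays, the SD of BARX2 was larger than that of 94.4% of these probes, and that of KLF4 larger than 33.2%. Duplicate spots of a probe on 1 array differed by a median of 0.05 to 0.08 for KLF4, KLF5, GRHL1, ELF3 and BARX2, with a largest value of 0.24, and such differences cover neither labelling nor hybridization.

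**Figure D3:**
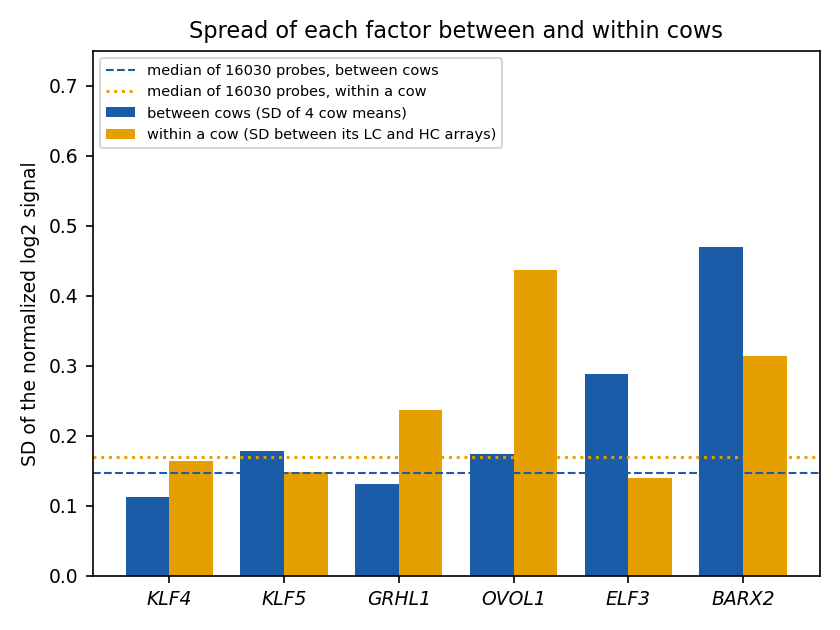
SD of the normalized log2 signal of the 6 measured factors between cows (blue bars, SD of the 4 cow means) and within a cow (orange bars, SD between its LC and HC arrays), with lines at the medians of 16030 probes. The ELF3 and BARX2 bars are higher between cows, and the OVOL1 and GRHL1 bars within a cow.

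Related transcription factors were then examined as a list of 31 family members, of which 13 had a probe and all 13 were measured. For diet, 1 of the 13 was called higher on HC and 0 lower, against 0.494% and 0.428% of all probes, and the median log2 difference was -0.05. The called gene was KLF12 (NM_001191270), a zinc finger repressor of the same family as KLF4 and KLF5. Its LC signals were 4.97, 5.02, 5.52 and 5.28 in cows 1 to 4 and its HC signals 6.00, 5.95, 5.47 and 5.84. The groups overlapped through cow 3, whose signals on LC and HC were close, and the other 3 of 4 cows had a higher signal on HC. The means of KLF12 were 5.20 ± 0.25 (SD, n = 4) and 5.81 ± 0.24 (SD, n = 4), a log2 difference of 0.62 (SE 0.12). In limma the unadjusted p was 0.00162 and the adjusted p 1.00, and the exact permutation p was 0.0571. Without the LC or the HC array of cow 4 the difference was 0.56 or 0.53, below 1.5-fold. With normexp background correction it was 0.25, but that setting adds an offset of 50 to the intensities, which shrinks log2 differences of dim probes. Between periods, the KLF12 log2 difference was 0.37 (unadjusted p = 0.0193), under 1.5-fold. The family members with the brightest probes, KLF6 and KLF13, had log2 differences between diets of 0.32 (SE 0.13) and -0.13 (SE 0.10). The KLF6 signal was higher on HC in all 4 cows, and limma gave an unadjusted p of 0.0421 and an adjusted p of 1.00. Its exact permutation p was 0.0857. With KLF12, 2 of the 13 had an unadjusted p under 0.05 for diet, against 3.65% of probes. Between periods, 0 of the 13 were called, with a median of 0.03.

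A second list held 32 other epithelial transcription factors, of which 15 had a probe and 13 were measured. Of the 15, 0 were called for diet and 0 for period, and the median log2 differences of the 13 were 0.03 and -0.001. An unadjusted p under 0.05 was found for 0 of the 15 for diet and for 1 for period, CDX1 (log2 difference -0.57), whose probe was above background on 4 of the 8 arrays. HOPX and PRDM1 were named after their values were seen. With the cow as a replicate block, HOPX had an unadjusted p of 0.0258 for diet (adjusted p = 0.843 from limma). Its log2 difference was 0.27, under 1.5-fold, with a higher signal on HC in all 4 cows. CEBPA, a leucine zipper factor of differentiating cells, and ZNF750, which acts downstream of TP63 in epidermal differentiation, had the brightest probes. The CEBPA log2 signal was 14.31 ± 0.25 (SD, n = 4) on LC and 14.11 ± 0.24 (SD, n = 4) on HC. ZNF750 had 12.79 ± 0.13 (SD, n = 4) and 12.94 ± 0.23 (SD, n = 4).

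Textbook squamous targets of these factors were counted by layer. Of 20 basal genes, 8 had a probe, and of 34 suprabasal genes, 19 did, and all of these were measured. For diet and for period, 0 of the 8 and 0 of the 19 were called. An unadjusted p under 0.05 was found for 0 of the 8 and 0 of the 19 for diet, and for 0 and 1 for period (RHCG, an ammonia transporter, with a log2 difference of -0.46). With the cow as a replicate block, 2 of the 19 were called lower in period 2, against 4.48% of the probes called in either direction. They were DSG1 (log2 difference -1.09, unadjusted p = 0.0193, adjusted p = 0.234 from limma) and CDSN, a protein of the cornified cell junctions (-0.61, unadjusted p = 0.0215, adjusted p = 0.241), the latter named after its values were seen. For diet, ITGB4 among the basal genes had an unadjusted p of 0.0230 in that fit (adjusted p = 0.843 from limma). The share of all probes under 0.05 for diet in that fit was not counted, and ITGB4 was named after its values were seen. The ITGB4 log2 difference was 0.28, under 1.5-fold, with a higher signal on HC in all 4 cows. The median log2 differences between diets were -0.09 for the basal and 0.04 for the suprabasal genes, and between periods -0.07 and -0.10. The brightest basal probe after that of KRT14 was that of KRT15, a keratin of basal progenitors, with a log2 difference between diets of 0.01 (SE 0.09). Among the suprabasal genes, KRT6A and A2ML1, a protease inhibitor of keratinizing cells, had differences of 0.04 (SE 0.19) and 0.01 (SE 0.09).

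**Figure D4:**
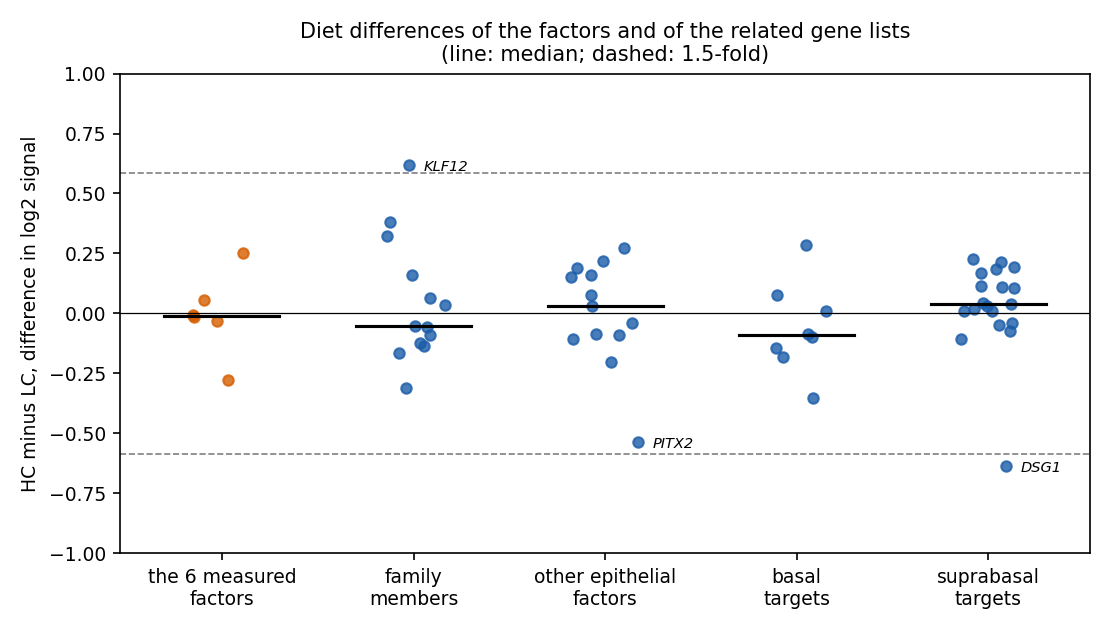
Difference in log2 signal between HC and LC for each measured gene (points) of the factors and the 4 related lists, without the cell type markers, with the median of each list as a line and 1.5-fold dashed. Among the genes shown, KLF12 and DSG1 lie beyond 1.5-fold, and of these KLF12 was called and DSG1, with an SE of 0.83, was not.

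For each measured factor, the 2 genes with the most similar pattern over the 8 arrays were sought among 6468 measured genes. The points are 8 arrays of 4 cows, so arrays of a cow share the animal, and arrays of a period share the slide. Pearson r was 0.97 with DDX5 and 0.95 with AHCYL1 for KLF4, and 0.96 with TMEM38B and 0.95 with PDCL for KLF5. For GRHL1 it was 0.98 with TRIP4 and 0.97 with PRRG4, and for OVOL1 0.97 with ERLIN1 and 0.95 with SLC25A22. ELF3 had an r of 0.97 with TNFSF13 and 0.96 with MTA2. BARX2 had an r of 0.98 with HRH1 and 0.94 with KDR, a receptor of endothelial cells. With so few arrays, 1% of all genes reached an r of 0.77 to 0.85 with a given factor.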

How the data were processed

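Rumen papilla RNA of 4 cows on each of 2 diets was measured on 8 single-colour Agilent bovine arrays. For each array the authors deposited the intensity of each spot from the scanner software (Feature Extraction 10.7.3.1), with the background subtracted and without a normalization across arrays. A table of log2 values, quantile-normalized by the authors, was deposited too and served as an alternative. Flags of the scanner software, deposited with the spots, were used to score a probe as well above background where all of its spots were. This held for 76.9 to 81.2% of the 21475 probes per array, and no spot was saturated. Precision is limited by the number of arrays.

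After removal of control spots and of 0 to 13 outlier spots per array, limma 3.58.1 in R 4.3.3 was used to quantile-normalize the log2 intensities and to average the spots of a probe. Of 10176 probes with a RefSeq accession, 8297 matched a gene of the RefSeq table for ARS-UCD2.0. Positions are not given, since the annotation of the array is of another build. The brightest probe of a gene was used. Diet, period and their interaction, the terms of the paper's model, were fitted to all probes with limma, with Benjamini-Hochberg adjustment over all of them (4 residual degrees of freedom). The contrast of cow pairs was fitted to cow means. Exact permutation tests used scipy 1.17.1, tables pandas 2.3.3 and plots matplotlib 3.10.9 in Python 3.11.15. The permutation tests exchanged the arrays freely, and the main fit held no term for the cow, so neither used the pairing.

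Samples were grouped by the diet and cow in their labels, and the labels and the design pair the arrays of a cow. Across 16030 probes, deviations from the diet mean correlated with r of 0.285, 0.298, 0.467 and 0.113 in cows 1 to 4, against -0.237 to 0.185 between different cows. Background correction, normalization, filter, model terms, moderation and left-out arrays were varied. The spot files hold no mean signal, so normexp used the median signal, and an offset of 50 was added to the corrected intensities. The named genes are the 10 factors, genes of the 4 lists of related factors and targets past both thresholds and above background on all 4 arrays of a diet or period (at most 4 in each direction), the 2 with the brightest probe in each of these lists, and the 2 genes most like each factor. DSG1, CDSN, RHCG, ITGB4, CDX1, HOPX and PRDM1, and the markers KRT8, FABP2 and ALAS2, fall outside this rule and were chosen with their values in view. The factors and lists were chosen with earlier results of these data known.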

Additional observations from a re-analysis of the deposited data

How the results depend on the processing

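With KLF4, KLF5, GRHL1, OVOL1, ELF3 and BARX2 measured, 0 of the factors were called for diet under any of 19 alternatives, for period under any of 17, or between the pairs of cows under any of 13. The count of all probes called for diet, 198, was 8 with normexp background correction, 415 with the deposited table, 55 over the 16030 measured probes and 105 with the general linear model without moderation. It was 239 to 404 as each array was left out. That for period, 828, was 33 with normexp and 326 over the measured probes. The cause was not tested, except that the filter leaves fewer probes to test and the normexp offset shrinks log2 differences of dim probes. The replicate block of cow with period gave 276 probes for diet and 962 for period, and changed no call of a factor. Differences near 0 changed sign: that of ELF3 for diet was 0.0018 with normexp, and that of KLF4 for period -0.028 with scaling to the 75th percentile. As each array was left out, the differences for diet were -0.11 to 0.094 for KLF4, -0.0047 to 0.12 for KLF5, -0.13 to 0.10 for ELF3 and -0.31 to 0.24 for BARX2. For period they were -0.089 to 0.11 for KLF4, -0.34 to 0.17 for OVOL1, -0.019 to 0.21 for ELF3 and -0.45 to 0.11 for BARX2. GRHL1 stayed higher on HC under all 22 alternatives, at 0.11 to 0.39, and its lowest adjusted p over the fits was 0.795. In this balanced design the filter, model terms, blocking and moderation leave each difference unchanged. Those alternatives could neither turn the sign of GRHL1 nor bring any factor to 1.5-fold. KLF12 remained called under 16 of 19 alternatives, and KRT8 under 14 of 19 for diet, being lost without the interaction term (unadjusted p = 0.159), with diet alone (0.194) and with cow as a block without period (0.0966). Each factor has 1 probe, so averaging probes changes nothing. A probe of OVOL1's dimness carries more spot error than the others, and TP63 gave no measurement.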
